A study of Homo sapiens with 4 samples.

Results

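The S100 proteins are small calcium-binding proteins, and this account covers 10 of their genes in pancreatic cancer cells with and without X-rays. The members were chosen by gene name, as S100A2, S100A3, S100A4, S100A6, S100A10, S100A11, S100A13, S100A14, S100A16 and S100P, which are 10 of the 58174 rows of the deposited table that carry a gene identifier. The members were found once each, and the table gave each a read count and an FPKM value, a level scaled to transcript length and to the mapped fragments of the library. The 2 established lines of human pancreatic cancer, PANC-1 and SW1990, were used at passage 14 to 16, and total RNA was sequenced from cells left unirradiated and from cells given 10 Gy of X-rays, with 1 library for each line and treatment and 4 in all. The lines were grown in different media with serum, so line and medium cannot be told apart. The time between radiation and RNA collection is not given in the sources used here.

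Counts on rows that name a gene summed to 17851815 in unirradiated SW1990, 18305682 in irradiated SW1990, 23323266 in unirradiated PANC-1 and 20026595 in PANC-1 after radiation. A floor of 3 counts equals 0.168, 0.164, 0.129 and 0.15 CPM in the same order. With 1 library per line and treatment no difference after radiation has a replicate check. The intervals printed below are 95% intervals from the counts and cover counting error only.

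S100 proteins carry EF-hand motifs and act as calcium sensors. When calcium rises inside the cell most of them change shape and bind partner proteins such as annexins, myosin or the cytoskeletal linker ezrin, and several are also released and signal to other cells through receptors such as AGER (RAGE) and TLR4. Most of the genes lie together on the long arm of chromosome 1, while S100P lies on chromosome 4, and in pancreatic cancer S100P, S100A4 and S100A6 are known as genes that are often overexpressed.

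In the table, on GRCh38, 15 S100 rows lay between 153357854 and 153632039 on chromosome 1, a stretch of 274.2 kb, and 7 of the 10 members were among them. S100A16 (153606886 to 153613145), S100A14 (153614255 to 153616986) and S100A13 (153618787 to 153631360) stood side by side on the minus strand, with 1.11 kb and 1.8 kb between their spans. S100A10 (151982915 to 151994390) and S100A11 (152032506 to 152047907) lay apart from that stretch on the same chromosome, and S100P was on chromosome 4 from 6693069 to 6697170. The spans of S100A3 and S100A4 overlapped on the same strand, but their annotated exons shared 0 bases. S100A13 shared 536 of its 2216 exon bases with AL162258.1 on the same strand, a gene with 23 to 49 counts per library, so the counts of S100A13 are less certain.

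Promoter sequence is shown for S100A14 and S100A16, because these adjacent genes differed in how far the lines stood apart. The sequences are RefSeq windows on GRCh38.p14, minus strand, of 250 bases directly before a transcript start. Capitals mark matches, on either strand, to the TATA box TATAAA, the GC box GGGCGG, the CCAAT box CCAAT, the AP-1 motif TGANTCA and the E2 box CACCTG. The first belongs to S100A14 (chr1:153616326-153616575), the next ones to the downstream and the upstream start listed for S100A16 (chr1:153609356-153609605 and chr1:153613138-153613387).
S100A14: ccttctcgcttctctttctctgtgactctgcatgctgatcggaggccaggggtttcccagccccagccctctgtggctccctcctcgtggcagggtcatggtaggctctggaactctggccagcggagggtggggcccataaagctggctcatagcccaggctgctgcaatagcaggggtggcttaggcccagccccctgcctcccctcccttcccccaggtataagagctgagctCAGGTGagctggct
S100A16, downstream start: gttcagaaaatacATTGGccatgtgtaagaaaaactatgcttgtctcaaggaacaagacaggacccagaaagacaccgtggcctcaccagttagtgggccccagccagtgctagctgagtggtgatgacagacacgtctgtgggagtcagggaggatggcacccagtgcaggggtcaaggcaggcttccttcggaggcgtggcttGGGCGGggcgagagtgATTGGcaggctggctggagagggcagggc
S100A16, upstream start: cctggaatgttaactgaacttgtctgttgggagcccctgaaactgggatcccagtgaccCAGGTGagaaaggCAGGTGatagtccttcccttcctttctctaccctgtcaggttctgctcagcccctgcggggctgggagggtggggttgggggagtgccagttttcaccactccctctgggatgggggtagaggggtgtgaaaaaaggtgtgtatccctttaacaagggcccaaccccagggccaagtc
The S100A14 window held 1 match, to the E2 box. Of its bases 30 were annotated as exon, against 8 in the upstream and 0 in the downstream S100A16 window. The downstream S100A16 window held 1 GC box and 2 CCAAT boxes, and the upstream one held 2 E2 boxes, with no overlap between matches. Over 35116 such windows in RefSeq, 17.5% held an E2 box, 42.6% a GC box, 32% a CCAAT box, 10.7% a TATA box and 6.57% an AP-1 motif. Across the 14 windows of the 10 members, 5 held an E2 box, 6 a GC box, 3 a CCAAT box, 3 a TATA box and 2 an AP-1 motif. The first bases after the downstream S100A16 start were not found in a GENCODE 29 transcript of the gene, while those after the other starts shown were. A match is a description of letters and not evidence of a bound factor.

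The members were compared by level first. In SW1990 cells the order was led by S100A10, the partner of annexin A2 that does not respond to calcium, with an FPKM of 268 in the unirradiated and 287 in the irradiated library. This gene made up 41% of the summed mean level of the members in that line. S100A11, a partner of annexin A1, had FPKM values of 96.8 and 165, and S100A6, known as calcyclin, had 101 and 121. The ranges of S100A11 and S100A6 overlapped, so their order was not resolved. S100A14, a gene typical of epithelial cells, stood at 51.9 and 82.6, and its neighbour S100A16, which is known to bind S100A14, at 47.8 and 70.3, again with overlapping ranges.
The other 5 members were lower in SW1990 cells. S100A13, which takes part in the release of FGF1, had FPKM values of 13.7 and 14.3. S100P had 8.61 and 8.06, and S100A4, known as metastasin and a partner of the myosin heavy chain MYH9, had 8.44 and 5.70, with overlapping ranges. S100A2, a gene of squamous and basal epithelia, had 1.10 and 2.67, and S100A3, a cysteine-rich member known from the hair cuticle, had 0.391 and 1.06.

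In PANC-1 cells the levels followed another order. S100A6 came first with FPKM values of 513 and 482, followed by S100A11 with 422 and 424, with S100A10 next at 180 and 200.5. S100A6 and S100A11 together made up most of the summed level, with 41.2% and 35% of it. S100A4 came after them with 40.3 and 65.5. S100A16 (11.9 and 19.6) and S100A13 (12.7 and 18.3) overlapped, while S100A3 (10.5 and 9.97) and S100A2 (2.48 and 2.88) stood below them without overlap. S100P was at 0.375 and 0.174, and S100A14 was listed at 0 in both libraries.
Among all genes with an FPKM of at least 1, S100A6 held rank 58 in PANC-1 without and rank 60 with radiation, and S100A10 ranked 158 and 132 in SW1990 cells. The 10 members together held 0.0705% and 0.0831% of the counts in SW1990 cells and 0.106% and 0.103% in PANC-1 cells.

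The other 11 S100 genes looked at were nearly silent. S100A7, S100A7A, S100A7L2, S100A8, S100A9, S100A12, S100B and S100G had 0 counts in all 4 libraries. S100A8 and S100A9 form calprotectin, the abundant S100 complex of neutrophils and monocytes. S100A1, S100A5 and S100Z had between 1 and 9 counts in the libraries where they were seen at all.

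The difference between the lines was tested over all 4 libraries in a model that also held treatment (quasi-likelihood F-test of edgeR, with p-values adjusted over 18180 genes by Benjamini-Hochberg). Each line has 1 library per treatment, so the spread in this test is that of the treatment differences between the lines, with 1 residual degree of freedom, and not that between cultures. Of all genes tested, 43.6% had an adjusted p under 0.05, 21.4% higher in SW1990 and 22.2% higher in PANC-1. Of the 10 members 8 did, 4 in each direction. Among them is S100A14, with 0 counts in both PANC-1 libraries. It was tested only through SW1990, so its call is not read. The calls of S100P, low in PANC-1 cells, and of S100A3, low in SW1990 cells, are not read either. In its low line alone each would have failed the filter on low counts. The median size of the line difference was 2.11 on the log2 scale for the members, S100A14 included, and 0.772 for all genes. In 9 members the CPM values of the lines did not overlap, 4 higher in SW1990 and 5 in PANC-1, which held for 76.7% of all genes, 38.4% and 38.3% by direction.

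The members higher in SW1990 were S100A14, S100P, S100A16 and S100A10. S100A14 had 1203 and 1936 counts in the unirradiated and irradiated SW1990 libraries and 0 in both PANC-1 libraries. It entered the test only through the SW1990 libraries, so no test result is read for it. Against a floor of 3 counts per library S100A14 was at least 450-fold higher without and at least 667-fold higher with radiation. The 95% counting intervals of these ratios, which allow slightly more than 3 counts, began at 8.52 and 9.08 on the log2 scale. S100P, a gene of placenta that is widely used as a marker of pancreatic ductal cancer, had 242 and 232 counts in SW1990 and 14 and 6 in PANC-1 cells. Both SW1990 libraries stood far above both PANC-1 libraries, with a log2 difference of 4.71 ± 0.43 (SE). S100P was under an FPKM of 1 in both PANC-1 libraries and entered the test through SW1990, so its call is not read. The PANC-1 level of S100P rests on few reads, and the difference was 19.4-fold without and 39.9-fold with radiation.
S100A16 had 1033 and 1527 counts in SW1990 and 361 and 544 in PANC-1 cells, a log2 difference of 1.61 ± 0.16 (SE, adjusted p = 0.00299, edgeR). The ratio between the lines was close in both treatments, 3.21-fold without and 2.90-fold with radiation. S100A10 had 7001 and 7153 counts in SW1990 and 6182 and 4647 in PANC-1 cells. Its log2 difference of 0.51 ± 0.15 (SE) was the smallest that passed the test, at an adjusted p of 0.0482 with edgeR, and it did not pass when low genes were kept. The ratio was 1.27-fold without and 1.59-fold with radiation by the counts, but 1.49-fold and 1.43-fold by the FPKM values, so no change of this gap is read.

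S100A3, S100A4, S100A6 and S100A11 were higher in PANC-1. S100A3 had 8 and 21 counts in SW1990 and 228 and 207 in PANC-1 cells, a log2 difference of -3.86 ± 0.49 (SE). Its test call is not read because of the low SW1990 counts. S100A4 had 116 and 79 counts in SW1990 and 683 and 970 in PANC-1 cells, a log2 difference of -2.97 ± 0.35 (SE, adjusted p = 0.00463, edgeR). Because S100A4 was lower after radiation in one line and higher in the other, the gap between the lines was 5.24-fold without and 11.9-fold with radiation. The gap for S100A3 was the wider one before radiation, with 25.4-fold without and 9.54-fold with radiation. It rests on the few SW1990 reads of S100A3. The log2 counting intervals overlapped, -5.89 to -3.66 without and -3.98 to -2.60 with radiation, so no change of this gap is read.
S100A6 had 1465 and 1765 counts in SW1990 and 9616 and 7673 in PANC-1 cells, a log2 difference of -2.31 ± 0.18 (SE, adjusted p = 0.00169, edgeR). S100A11 had 1255 and 2179 counts in SW1990 and 7205 and 6267 in PANC-1 cells, a log2 difference of -1.91 ± 0.25 (SE, adjusted p = 0.00578, edgeR). For both, the SW1990 libraries lay below the PANC-1 libraries in either treatment.

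S100A2 and S100A13 did not pass the test. S100A2 had 22 and 43 counts in SW1990 and 57 and 53 in PANC-1 cells, with a log2 difference of -0.71 ± 0.46 (SE, adjusted p = 0.266, edgeR). It was 2.31-fold higher in PANC-1 without radiation, with a log2 interval of -1.99 to -0.47, and 1.19-fold higher with radiation, with an interval of -0.87 to 0.35. S100A13 had 235 and 284 counts in SW1990 and 273 and 322 in PANC-1 cells, with a log2 difference of -0.09 ± 0.22 (SE, adjusted p = 0.763, edgeR). The libraries of S100A13 overlapped between the lines, and its ratio within a treatment had 95% counting intervals of -0.31 to 0.21 without and -0.37 to 0.10 with radiation on the log2 scale.

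Neighbours in the genome were counted in the same way. Of 19 other genes tested that start within 500 kb of the stretch of S100 genes, 1 was higher in SW1990 (SLC27A3, log2 difference 1.95 ± 0.27 SE, adjusted p = 0.00667, edgeR) and 1 in PANC-1 (GATAD2B, -0.49 ± 0.14 SE, adjusted p = 0.0419, edgeR), beside 21.4% and 22.2% of all genes. SLC27A3 is a fatty acid transport protein, and GATAD2B is a subunit of the NuRD chromatin complex. The median size of the line difference was 0.418 among these neighbours and 0.772 over all genes. Within the run of S100A16, S100A14 and S100A13, the difference went from 1.61 through a bound of at least 8.81 to -0.09 over adjacent genes.

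Markers of cell type were compared between the lines in the same fit. SW1990 cells carried the epithelial markers EPCAM (FPKM 217 and 218) and CDH1 (140.1 and 239), the cadherin of epithelial junctions, while PANC-1 cells had EPCAM at 2.29 and 2.81 and CDH1 at 0.673 and 1.21. VIM, the intermediate filament of mesenchymal cells, had FPKM values of 1627 and 1650.0 in PANC-1 cells, against 0.626 and a value listed at 0 in SW1990 cells. In total 4 of 6 epithelial markers were higher in SW1990 and 0 in PANC-1, and 3 of 3 mesenchymal markers tested (VIM, CDH2 and ZEB1) were higher in PANC-1 (adjusted p under the limit of 0.05, edgeR), where 21.4% of all genes were higher in SW1990 and 22.2% in PANC-1. VIM had 17 and 0 counts in SW1990 cells and CDH2 had 0 and 4. Both were tested only through PANC-1, so their calls are not read. Of the mesenchymal markers tested, only the call of ZEB1 is then left to read. KRT8 and KRT18, keratins of simple epithelia, were above an FPKM of 468 in all 4 libraries. These epithelial keratins were thus present in both lines, while EPCAM and CDH1 were low in PANC-1.
The summed FPKM of the 6 epithelial markers was 2883 and 3719 in SW1990 and 1409 and 1639 in PANC-1 cells, with KRT8 the most abundant. That of the 4 mesenchymal markers was 0.94 and 1.49 in SW1990 and 1647 and 1670.0 in PANC-1 cells, nearly all of it from VIM. FN1, the mesenchymal marker not tested, was nearly absent from both lines. It had 0 and 25 counts in SW1990 and 8 and 9 in PANC-1 cells, so it did not follow VIM. Their part in the line differences of the S100 genes was not tested. Immune markers summed to 28 to 58 counts per library, nearly all from CD14, with CD3E at 0 in all 4 libraries. Endothelial markers summed to 0 to 8 counts. Of the fibroblast markers DCN had 0 counts in all 4 libraries, while COL1A1 had 103 and 165 counts in SW1990 and 965 and 1315 in PANC-1 cells, and COL3A1 had 0 in both SW1990 libraries and 80 and 77 in PANC-1 cells. COL1A1 was higher in PANC-1 (adjusted p = 0.00109, edgeR). COL3A1 was tested only through PANC-1, so no test result is read for it.

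The genes whose pattern over the 4 libraries was most like that of S100A14 were PROM1, MUC13, KLK10, LAD1 and FAM83F. They were the nearest of 17661 genes by Euclidean distance between centred log2 CPM values (0.1 added), at 0.219 to 0.433. All 5 had 0 counts in both PANC-1 libraries. MUC13, a membrane mucin, had 1422 and 2278 counts in SW1990 cells, and PROM1, which encodes the surface protein CD133, had 1177 and 1615. With 4 libraries this likeness is a description of these profiles only.

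The comparison of irradiated with unirradiated cells addresses how the transcriptome of pancreatic cancer cells changes after radiation. In SW1990 cells 8 of 10 members were higher in the irradiated library, with a median log2 ratio of 0.41, while 49.4% of the 15731 genes compared were higher and their median was -0.01. A fold of 2 was passed by 1 member, S100A3, and by 9.61% of all genes, 4.36% higher and 5.25% lower after radiation. S100A3 had an FPKM under the minimum of 1 in the unirradiated library and was compared only because the irradiated library reached 1.06, so nothing is read from this call. Without it 7 of 9 members were higher, with a median of 0.27, and 0 passed a fold of 2. A fold of 1.5 was passed by 4 members, S100A2, S100A3, S100A11 and S100A14, all higher, or by 3 of 9 without S100A3, and by 20.3% of all genes, 10% higher and 10.3% lower. In PANC-1 cells, where 8 members had an FPKM of at least 1 in either library, 5 were higher, with a median of 0.03, against 50.3% of 15159 genes. By the FPKM ratios 6 of these 8 were higher, with a median of 0.18. The median FPKM ratio of all genes compared in PANC-1 was 0.07, and their share higher by FPKM was not counted. In that line 0 of 8 members passed a fold of 2, as did 9.14% of all genes, 5.12% higher and 4.02% lower. A fold of 1.5 was passed by S100A4 and S100A16, both higher, and by 21.7% of all genes, 11.8% higher and 9.84% lower. With a read test q-value under 0.001 added to the fold of 2, 0 members passed in either line, beside 4.21% of all genes in SW1990 and 4.8% in PANC-1. The read test compares 2 libraries and not the conditions, and no test over replicates could be run within a line.

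S100A16 and S100A13 were higher after radiation in both lines. S100A16 went from 1033 to 1527 counts in SW1990 cells, a log2 ratio of 0.56 (95% interval 0.44 to 0.67), and from 361 to 544 in PANC-1 cells, a log2 ratio of 0.74 (0.55 to 0.94). The FPKM values gave 0.56 and 0.72. S100A13 had log2 ratios of 0.27 (0.01 to 0.52) in SW1990 and 0.39 (0.15 to 0.63) in PANC-1 cells. From the FPKM values these were 0.06 and 0.52. S100A14, which lies between them, had a log2 ratio of 0.68 (0.58 to 0.79) in SW1990 cells and could not be compared in PANC-1 cells.

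S100A11 was higher after radiation in SW1990 cells, with 1255 and 2179 counts and a log2 ratio of 0.79 (0.69 to 0.89). In PANC-1 cells its counts of 7205 and 6267 gave a log2 ratio of -0.05 (-0.10 to -0.00), which turned to 0.02 when libraries were scaled by total counts and 0.01 from the FPKM values. S100A6 had a log2 ratio of 0.26 (0.16 to 0.36) in SW1990 and -0.18 (-0.22 to -0.13) in PANC-1 cells. The FPKM values gave 0.25 and -0.09. The gap between the lines was smaller after radiation than before for both genes, going from 5.11-fold to 2.79-fold for S100A11 and from 5.84-fold to 4.21-fold for S100A6.

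S100A4 had log2 ratios of opposite sign in the lines. It went from 116 to 79 counts in SW1990 cells, a log2 ratio of -0.56 (-0.99 to -0.14), and from 683 to 970 in PANC-1 cells, a log2 ratio of 0.66 (0.51 to 0.80). The FPKM values gave -0.57 and 0.70. The log2 ratio in SW1990 minus that in PANC-1 was -1.22, with a counting interval of -1.65 to -0.78.

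S100A10 had a log2 ratio of 0.03 (-0.02 to 0.07) in SW1990 cells. In PANC-1 cells the counts and the FPKM values disagreed in direction, with a log2 ratio of -0.26 (-0.32 to -0.21) from 6182 and 4647 counts and of 0.15 from FPKM values of 180 and 200.5. The transcript length implied by its count, its FPKM and the library total was 1462 bases in the unirradiated and 1150 bases in the irradiated PANC-1 library, against 1454 and 1355 bases in SW1990. No direction is given for S100A10 in PANC-1 cells. S100A11 had implied lengths of 719 to 733 bases in the 4 libraries.

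The low members carried wide intervals. S100A3 went from 8 to 21 counts in SW1990 cells, a log2 ratio of 1.39 (0.15 to 2.77), and had 0.01 (-0.27 to 0.29) in PANC-1 cells. S100A2 went from 22 to 43 counts in SW1990 cells, a log2 ratio of 0.96 (0.19 to 1.77), which was 1.27 from the FPKM values, and had 0.04 (-0.52 to 0.61) in PANC-1 cells. S100P had -0.07 (-0.33 to 0.20) in SW1990 cells, and its 14 and 6 counts in PANC-1 cells lay under the FPKM minimum.

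**Figure D1:**
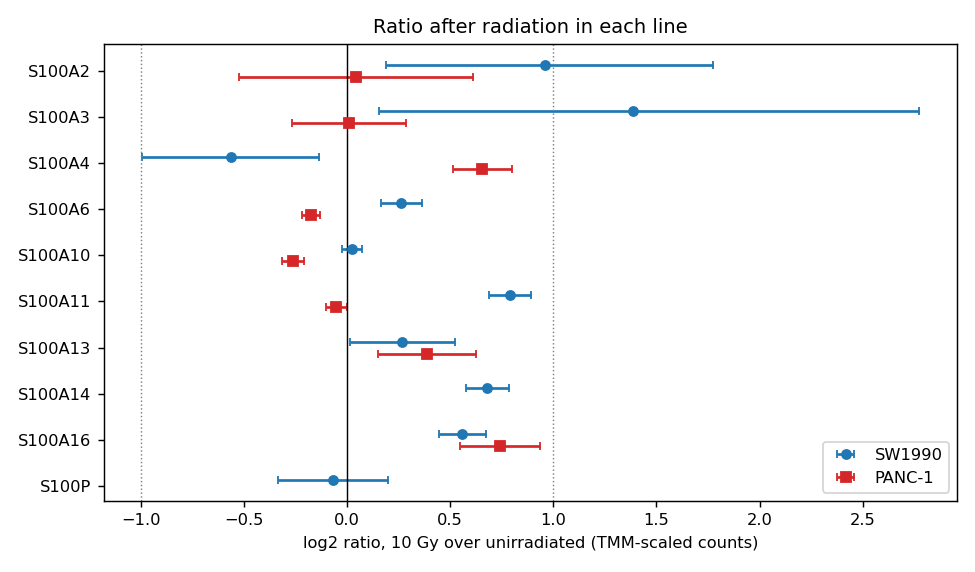
log2 ratio of the 10 Gy over the unirradiated library for each S100 gene, circles for SW1990 and squares for PANC-1, with 95% counting intervals; dotted lines mark a fold of 2. S100A16 and S100A13 lie right of 0 in both lines, S100A4 lies left in SW1990 and right in PANC-1, and S100A14 and S100P have no PANC-1 value.

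Over both lines together, with cell line as a covariate, 0 of the 10 members and 0 of 18180 genes had an adjusted p under 0.05 for radiation with edgeR. At an unadjusted p under 0.05 there were 833 genes, or 4.58%, and 1 member. This was S100A16, higher in both lines, with a log2 ratio of 0.65 ± 0.16 (SE, adjusted p = 0.936, edgeR). DESeq2 gave 0 members and 39 genes on the same libraries, and limma on log2(FPKM + 1) gave 0 members and 1 gene. With DESeq2, S100A2, S100A3, S100A4, S100A13 and S100P had no adjusted p, so these members could not be called.

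Receptors and binding partners of S100 proteins were taken from a list compiled by name. Of 4 receptors, TLR4 and ALCAM were higher in PANC-1 and BSG in SW1990, beside 22.2% and 21.4% of all genes in these directions. TLR4 had 0 counts in both SW1990 libraries and 140 and 98 in PANC-1 cells. It was tested only through PANC-1, so its call is not read. AGER, the receptor for S100P and S100A4 among others, had 65 and 55 counts in SW1990 and 35 and 26 in PANC-1 cells and did not pass the test. None of the receptors passed a fold of 2 after radiation in the lines where it was compared. Of all genes, 9.61% passed in SW1990 and 9.14% in PANC-1 cells, so little can be read from so few receptors.
Of 17 binding partners tested between the lines, 5 were higher in SW1990 and 5 in PANC-1, where 43.6% of all genes passed, 21.4% and 22.2% by direction. ANXA1, the annexin bound by S100A11, was higher in PANC-1 by a log2 difference of -2.21 ± 0.33 (SW1990 minus PANC-1, SE, adjusted p = 0.00822, edgeR), the same direction as S100A11. Its log2 ratio after radiation was 0.76 in SW1990 and -0.43 in PANC-1 cells. MYH9, bound by S100A4, was also higher in PANC-1 (-1.18 ± 0.15 SE, adjusted p = 0.00533, edgeR). ANXA2, the partner of S100A10, was higher in PANC-1 (-0.86 ± 0.14 SE, adjusted p = 0.0111, edgeR), the opposite direction to S100A10. ANXA6 (1.98 ± 0.18 SE, adjusted p = 0.00226, edgeR) and SUGT1 (1.25 ± 0.15 SE, adjusted p = 0.00474, edgeR), a co-chaperone, were higher in SW1990.
After radiation, 1 of 17 partners passed a fold of 2 in SW1990 and 1 of 16 in PANC-1 cells, beside 9.61% and 9.14% of all genes. In SW1990 this was PLAT, tissue plasminogen activator, which S100A10 can bind at the cell surface. It went from 41 to 138 counts, a log2 ratio of 1.75 (1.23 to 2.29), and had 44 and 36 counts in PANC-1 cells. With FPKM values of 0.777 and 2.44 in SW1990 it was compared only through the irradiated library, so nothing is read from this call. In PANC-1 it was AHNAK, the giant scaffold protein bound by S100A10 and annexin A2, with 147453 counts without and 6438 with radiation, a log2 ratio of -4.37. The FPKM of AHNAK went from 278 to 174 in the same libraries, a log2 ratio of -0.68 that does not pass a fold of 2, so this call is lost by the FPKM values. In SW1990 cells AHNAK had 54147 and 64392 counts.
Among the marker lists, ZEB1, a repressor of epithelial genes, went from 14 to 66 counts in SW1990 cells after radiation (log2 ratio 2.23, 1.39 to 3.18), and CD14 from 26 to 52 counts in PANC-1 cells (1.15, 0.44 to 1.89). Both were under an FPKM of 1 in the unirradiated library and were compared only through the irradiated one, so these are values and not calls to be read. Among the genes near the S100 stretch, 3 of 19 passed a fold of 2 in SW1990 and 0 of 15 in PANC-1 cells, beside 9.61% and 9.14% of all genes. They were SLC39A1, a zinc transporter, with 626 and 2324 counts (log2 ratio 1.89, 1.76 to 2.02), and MIR6737 (2 and 1 counts) and AL358472.3 (2 and 16 counts). The last pair reached an FPKM of 1 only in the library where each was high, so that SLC39A1 was the one gene of the 3 compared on both of its levels.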

How the data were processed

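The authors deposited 1 table that lists counts and FPKM for every gene in each library. Per the labels and the study's methods, reads were filtered with Trimmomatic 0.36, aligned with HISAT2 2.0 to GRCh38 and given expression values by StringTie 1.3.3b. The deposited counts were not normalized, and their counting tool is not given in the sources used here. The deposited FPKM values were used for levels and for the minimum of 1. The methods name an mRNA kit, while the sample records describe rRNA depletion. Of 59263 rows, 1089 name no gene and held 0.453% to 0.635% of the counts. They were left out, and 27 gene names that had turned into dates were restored. Coordinates matched GENCODE 29 for 96.8% of the 57836 gene rows found there, the members included.

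Radiation ratios used TMM scaling within each pair of libraries, a fold limit of 2, and 0.01 in place of 0, both after the methods. The study's q-value was not used for calls, since each group has 1 library. Intervals are exact Clopper-Pearson intervals. The interval of a difference between lines uses the normal approximation to the counts. Line and radiation over all 4 libraries were fitted with edgeR 4.0.16 (R 4.3.3, filterByExpr), and SE is the log2 difference over the root of the F statistic. DESeq2 1.42.0 and limma 3.58.1 served as alternatives, and the fits were tested on simulated data. Nothing shows separate cultures within a group. The members and lists were chosen with earlier results of these data known. All members are named, and of each list those past a fold of 2 or up to 5 with the largest line difference that passed, of which the text gives a part. A gene that the rule names is not reported here.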

Additional observations from a re-analysis of the deposited data

Results flagged for a closer look

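In 3 members the log2 ratio after radiation had opposite signs in the lines, with both counting intervals away from 0. The log2 ratio in SW1990 minus that in PANC-1 was -1.22 for S100A4, 0.44 for S100A6 and 0.84 for S100A11. With 1 library per line and treatment these differences between the lines were not tested. For S100A11 the PANC-1 ratio of -0.05 became 0.02 with scaling by total counts, so its signs are then alike.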

How the results depend on the processing

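The count of members past the fold limit was 1 of 10 in SW1990 and 0 of 8 in PANC-1 cells. In SW1990 cells it was 4 at a fold of 1.5 (20.3% of all genes), 2 from FPKM ratios (S100A2 and S100A3), 0 with a read test q-value under 0.001 added (4.21% of all genes), 0 of 8 with an FPKM of at least 5, 0 of 9 with S100A3 and S100A4 summed, and 0 of 9 with an FPKM of at least 1 in both libraries, an alternative chosen after seeing the data. In PANC-1 cells it was 2 at a fold of 1.5 (21.7% of all genes) and 1 without a filter, which was S100P. By FPKM ratios 1662 genes in all passed a fold of 2 in SW1990 cells, against 1512 with TMM scaling. Scaling by total counts, DESeq2 size factors and rows without a gene in the totals left both counts as they were. The read test was edgeR's binomial test. The line difference held for 8 of 10 members in all alternatives with a test (DESeq2 called 6124 of 18180 genes, against 7921 in the report) except 7 without a filter on low counts, where 6105 of 30227 genes passed and S100A10 had an adjusted p of 0.0954, and 7 of 9 with S100A3 and S100A4 summed. The other alternatives called from 7355 of 17662 genes (FPKM of at least 1) to 8392 of 18180 genes (cell line alone in the model). The member counts include S100A14, S100P and S100A3, whose calls are not read. Radiation over both lines gave 0 members in every alternative run. In the DESeq2 alternative S100A2, S100A3, S100A4, S100A13 and S100P had no adjusted p and could not be called. Leaving out 1 library left no residual degrees of freedom, so that no test could be made, and the values within each treatment are those given in the report. No paired analysis within a line was possible with 1 library per line and treatment, and the labels carry no replicate numbers. The fits over 4 libraries already hold line and treatment as terms. Depth limits S100A2, S100A3 in SW1990 and S100P in PANC-1 cells, with 57 counts or fewer.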
